A study of Rattus norvegicus with 61 samples.

Results

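A group of 100 transcripts that stood highest in rat natural killer (NK) cells and were nearly absent from the liver was followed through sorted immune cells, spleen, blood and liver. The 100 members were taken from 31196 transcripts by a rule that read the measured levels, so their high level in NK cells and their low level in liver are a description and were not tested. Each value was divided by the total of its sample and multiplied by 1000000 (CPM), and the mean was taken for each of the 6 sorted cell types. Transcripts were kept when the mean of the 15 livers was under 1 CPM and the NK mean was at least 2 CPM. The NK mean plus 1 also had to exceed the next highest sorted mean plus 1 by more than 1.5-fold, and the 100 highest ratios became the members. The ratio and the NK mean were met by 348 transcripts, of which 158 were lost to the liver limit, so that the members are 100 of 190 eligible transcripts.

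NK cells are innate lymphocytes that kill infected or transformed cells by releasing perforin and granzymes from cytotoxic granules. Inhibitory receptors for self MHC class I and activating receptors for stress ligands set whether they kill, and they also secrete interferon gamma. They circulate in blood, settle in the red pulp of the spleen and form a sizeable part of the lymphocytes in the liver sinusoids, although lymphocytes are a small part of liver RNA. CD8 T cells share much of the killing machinery with them.

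The study built reference profiles of immune cells to estimate their share in rat tissues. The animals were male wild-type Sprague Dawley rats aged 6 weeks. NK cells (CD45+/CD11b-/CD3-/CD161+), B cells, CD4 T cells and CD8 T cells were sorted from the spleen, whereas monocytes and neutrophils came from blood, with 6 untreated samples of each type. Spleen and whole blood cells, both freed of red cells by lysis, were sequenced unsorted with 5 samples each. The 15 livers came from rats that were fasted before dosing by gavage, and the livers were perfused before RNA isolation. There were 5 livers each at 24 h after 0.5% methylcellulose (Ctrl), acetaminophen at 3 g/kg (APAP) or 4,4'-methylene dianiline at 300 mg/kg (MDA), a pair of compounds known to injure liver parenchyma and bile ducts, respectively. The sources do not say which sorted samples came from the same animal, and where nothing sets samples apart as separate animals, p-values measure only the spread between these samples.

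The deposited table gives estimated counts, with sample totals between 3429971 and 14146402 (median 11019514). Steps in their low values differed between transcripts, and they were taken as TPM scaled to the library total, with transcript length divided out. Levels of different transcripts are compared in CPM on that reading. In bulk RNA, fewer cells of a type and less RNA per cell cannot be told apart. No table at hand paired the transcript identifiers with gene symbols, since 0 of 31196 were found in a list of 47357 rat genes. Members are therefore given by Ensembl identifier, and neither their sequences nor the defining markers of NK cells, such as perforin, granzymes and the CD161 used in the gate, could be looked up. The label of the NK samples rests here on the sorting gate alone.

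One NK library stood apart, and it bears on every NK level below. Summed over the members, NK replicates 1 to 6 held 6305, 9038, 3350, 5256, 1182 and 5721 CPM. Replicate 2 was the highest of the 6 in 88 members and replicate 5 the lowest in 88 members. The median member was at 0.209 times the mean of the other 5 NK samples in replicate 5, and at 2.35 times in replicate 2. A list of 100 B cell transcripts, made by the same rule with B cells as the target and sharing 0 transcripts with the members, ran the other way. It summed to 3926, 2193, 4882, 4085, 6058 and 3713 CPM in NK replicates 1 to 6, against 6136 to 12971 CPM in the B cell samples and 1580 to 6222 CPM in the T cell samples. NK replicate 5 thus carried the fewest NK transcripts and the most B cell transcripts of its group, and its B list sum lay close to the lowest B cell sample. The same-rule lists of monocytes (524 to 793 CPM) and neutrophils (354 to 521 CPM) were also highest in NK replicate 5. This was not particular to NK cells, since replicate 5 was highest for all these lists in both T cell types. The B, monocyte and neutrophil lists summed to 5558, 644 and 417 CPM in CD4 T cell replicate 5. In CD8 T cell replicate 5 they summed to 6222, 684 and 464 CPM. The part of other cells in the NK levels was not tested. Means, ratios and percentages of the NK level below include replicate 5, and the main ones are repeated without it.

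**Figure D1:**
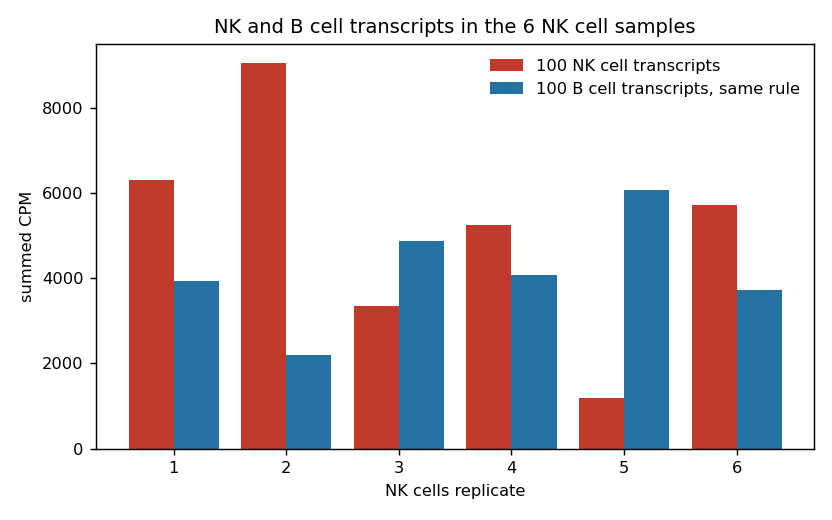
Summed CPM of the 100 NK cell transcripts (red bars) and of 100 B cell transcripts chosen by the same rule (blue bars) in each of the 6 NK cell samples, with the replicate number on the horizontal axis. The red bar is highest in replicate 2 at 9038 CPM and lowest in replicate 5 at 1182 CPM, where the blue bar is highest at 6058 CPM.

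Replicate 5 also set in how many members the NK samples lay above the other sorted samples. The members were ranked on these same samples, so such counts are high by the choice. No share over all transcripts is given beside them. The lowest NK sample lay above all 30 other sorted samples in 42 of the 100 members, and without replicate 5 it did so in 88. Taken one at a time, NK replicates 1, 2, 3, 4 and 6 exceeded all 30 other sorted samples in 99, 98, 90, 97 and 98 members, whereas replicate 5 did so in 45. The mean summed level in NK cells was 5142 ± 2675 CPM (SD, n = 6), and 5934 ± 2059 CPM (SD, n = 5) without replicate 5. Even the 1182 CPM of replicate 5 lay above the highest of the 30 other sorted samples, at 899 CPM. The highest NK sum was 7.64 times the lowest, and the coefficient of variation over the 6 NK samples had a median of 59.7% over members, and of 45.4% without replicate 5.

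Members were also chosen anew without replicate number k of any sorted type and then read in the samples left out, which the choice had not used. When replicate 1, 2, 3, 4 or 6 was left out, the held-out NK sample was the highest of the 6 held-out samples in 98, 97, 95, 95 and 95 of the 100 transcripts chosen. Over all transcripts averaging 1 CPM or more in the held-out samples, the NK sample was highest in 19.96%, 33.9%, 13.1%, 18.8% and 18.8%. The median ratio to the next type was 4.27, 7.40, 2.64, 3.35 and 3.98 in those held-out samples. When replicate 5 was left out, its NK sample was highest in 68 of 100 against 11% of all transcripts, with a median ratio of 1.10 and only 4 transcripts above 1.5. The held-out NK sample was thus highest in more than 50% of the chosen transcripts for all 6 numbers, while the median ratio ran from 1.10 to 7.40.

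The members spread over a wide range of levels and a few carried most of the sum. In NK cells 45 members had a mean under 10 CPM, 44 a mean of 10 to 100 CPM and 11 a mean of at least 100 CPM, and the 5 most abundant made up 52.0% of the summed NK level. The ratio that ranked the members had a median of 3.98 and was above 5 in 34 members, and the median was 4.53 with NK replicate 5 left out of the NK mean.

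The member with the highest ratio was ENSRNOT00000043719. It stood at 1176, 1115, 73.9, 842, 109.7 and 1154 CPM in NK replicates 1 to 6, a mean of 745 ± 520 CPM (SD, n = 6), or 872 ± 466 CPM (SD, n = 5) without replicate 5. Replicates 3 and 5 were far below the other NK samples, and replicate 3 lay within the range of the B cells (26.7 to 95.4 CPM). B cells were the next type at 66.4 ± 23.9 CPM (SD, n = 6), a ratio of 11.1. NK replicate 3 was the lowest of the 6 in 7 members in all.

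ENSRNOT00000025080 had the second highest ratio, 10.4, with NK values of 124.8, 249, 69.6, 95.6, 20.8 and 99.7 CPM and a mean of 109.9 ± 76.8 CPM (SD, n = 6), or 127.8 ± 70.6 CPM (SD, n = 5) without replicate 5. All 6 NK samples lay above the neutrophils, its next type at 9.65 ± 1.56 CPM (SD, n = 6). ENSRNOT00000014319 was the most abundant member, at 1134, 1470.2, 706, 957, 197 and 1057 CPM in NK cells and a mean of 920.1 ± 433 CPM (SD, n = 6), or 1065 ± 278 CPM (SD, n = 5) without replicate 5. Its next type was B cells at 91.4 ± 40.6 CPM (SD, n = 6), and its ratio of 9.97 ranked it at place 5. ENSRNOT00000043719 had the second highest NK mean. These 3 transcripts shared the low value of replicate 5, and their next type was a B cell or a neutrophil rather than a T cell.

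The list ended without a gap. The last member, ENSRNOT00000020917, had an NK mean of 2.42 CPM, a next mean of 0.370 CPM in CD8 T cells and a ratio of 2.50. The first transcript outside, ENSRNOT00000000109, had an NK mean of 21.4 CPM, a next mean of 8.07 CPM in CD8 T cells and a ratio of 2.47.

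A small number of members owed their place to single libraries. In 3 members 1 NK sample held more than 50% of the NK sum, and in 2 of them it held all of it. ENSRNOT00000078261 was listed at 20.5 CPM in NK replicate 3 and at 0 in the other 5 NK samples, in the 30 other sorted samples and in all spleens and whole blood samples. Beyond that NK sample it was listed above 0 in 1 APAP liver (replicate 3, 6.38 CPM) and 1 MDA liver (replicate 3, 5.61 CPM). ENSRNOT00000072744 was listed at 17.1 CPM in NK replicate 1 and at 0 in the other 5 NK samples, while whole blood replicates 1 and 2 held 8.72 and 4.46 CPM. These transcripts were chosen for mention after their values were seen, and they are members of the list by rule rather than by a level shared among NK samples.

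The types that came next to NK cells were mostly lymphocytes. CD8 T cells, which are cytotoxic like NK cells, were the next highest type for 37 members, B cells for 36 and CD4 T cells for 14. Neutrophils came next for 11 members and monocytes for 2. The median ratio was 4.90 where B cells came next and 3.88 where CD8 T cells did, and it was 3.27 for CD4 T cells, 3.50 for neutrophils and 2.96 for monocytes. The median level of the next type was 4.96 CPM where it was CD8 T cells and 1.87 CPM where it was B cells.

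Summed over the members, the other sorted types lay far below NK cells and close to each other within lineages. The sum was 633 ± 160 CPM in CD8 T cells, 622 ± 184 CPM in B cells and 517 ± 106 CPM in CD4 T cells (SD, n = 6 each), or 12.3%, 12.1% and 10.1% of the NK mean (10.7%, 10.5% and 8.72% without NK replicate 5). The ranges of these 3 lymphocyte types overlapped, at 475 to 899, 346 to 864 and 416 to 713 CPM. Neutrophils held 340.0 ± 79.2 CPM (229 to 417) and monocytes 252 ± 64.5 CPM (159 to 326), which is 6.61% and 4.90% of the NK mean (5.73% and 4.24% without NK replicate 5), and these ranges overlapped too. Of the 100 members, 62 had a mean of at least 1 CPM in CD8 T cells, 63 in B cells, 60 in CD4 T cells, 47 in neutrophils and 41 in monocytes. Replicate 5 had the highest member sum of its type in 3 sorted types (CD4 T cells, CD8 T cells and neutrophils), opposite to its place among NK cells.

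**Figure D2:**
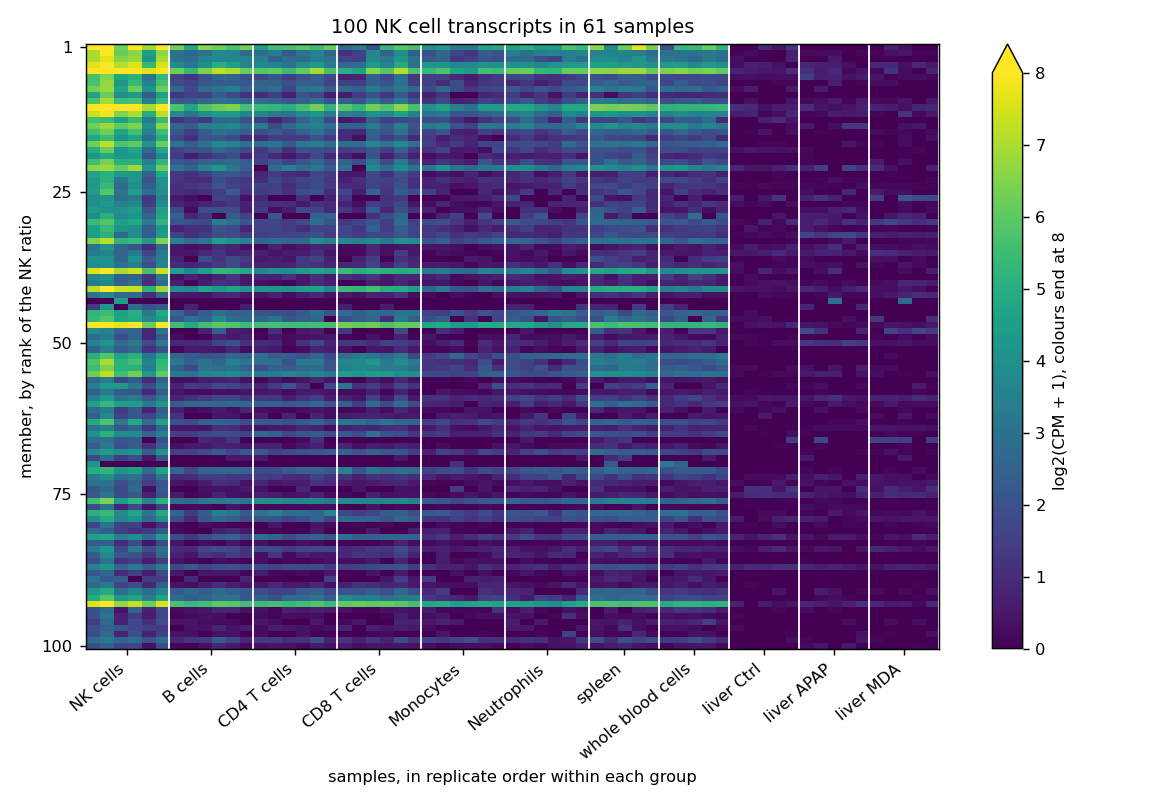
Level of each of the 100 members (vertical axis, ordered by the NK ratio) in each of the 61 samples (horizontal axis, grouped by type and in replicate order), coloured by log2(CPM + 1) with the colours ending at 8. The NK block is bright except for its replicate 5, the other sorted types, spleen and whole blood are dim for most members, and the 15 livers are almost black.

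Spleen and whole blood cells contain NK cells among many other cells. Their unsorted samples took no part in the choice of members, whereas cell types sorted from spleen and blood did. The member sum was 723 ± 116 CPM in spleen (578 to 887) and 463 ± 36.1 CPM in whole blood cells (431 to 504; SD, n = 5 each), which is 14.05% and 9.00% of the NK mean (12.2% and 7.80% without NK replicate 5). The single members showed the same, with a median of 13.9% of the NK mean in spleen (25th to 75th percentile 9.99% to 18.1%) and 8.65% in whole blood cells (6.76% to 12.9%). In 0 of the 100 members did the mean of either tissue reach the NK mean.

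These tissue levels were not far above those of the sorted types other than NK cells. The spleen mean exceeded the means of all 5 other sorted types in 43 members and did not in 57. In whole blood cells this was so in 17 members and not in 83, although the whole blood mean exceeded both sorted blood types in 76 members. Of the 18 sorted splenic samples other than NK cells, 6 had a member sum at or above the lowest spleen sample and 1 lay above the highest. All 12 sorted blood samples lay below the lowest whole blood sample. The rule had kept the other sorted types below NK cells in every member, so these counts and sums are a description. No share over all transcripts is given beside them.

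**Figure D3:**
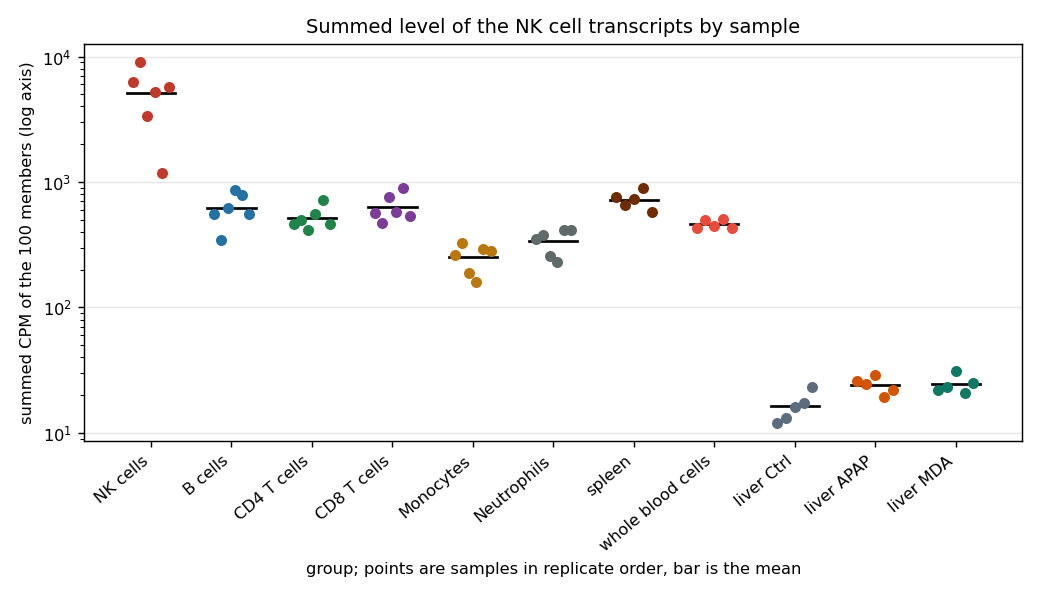
Summed CPM of the 100 members in each of the 61 samples on a log axis, by group, with points in replicate order and a bar at the group mean. NK samples run from 1182 to 9038 CPM, the other sorted types, spleen and whole blood from 159 to 899 CPM, and the livers from 12.1 to 31.3 CPM.

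Spleen was then compared with whole blood cells, 2 tissues known to differ in their immune cell composition. Members leaned to spleen: 23 were higher in spleen and 0 lower, and 72 of the 95 members tested did not pass (edgeR's quasi-likelihood test, Benjamini-Hochberg adjusted p under 0.05). The 23 are 24.2% of the members tested, and 19.6% of all 16689 transcripts tested were higher in spleen, so the share of higher calls was near the background. The share of lower calls was 0 against a background of 20.6%. Sorted neutrophils and monocytes, which came from blood, were kept below NK cells by the rule, and NK cells came from spleen. The choice of members could thus itself favour spleen, and how far it set these shares was not tested. In either direction 40.2% of all transcripts tested passed. At an unadjusted p under 0.05 (edgeR), 32 of the 95 members tested passed in either direction, against 8033 of all 16689 transcripts tested. The median log2 fold change of spleen over whole blood cells was 0.40 in the members tested (25th to 75th percentile -0.04 to 0.79) and 0.02 over all transcripts (-0.37 to 0.37). In 26 members all 5 spleens lay above all 5 whole blood samples, against 24.3% of all transcripts, and in 0 the reverse held, against 9.02%.

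The calls were also counted by the next sorted type and by level. Of the 36 members tested with CD8 T cells as the next type, 13 were higher in spleen (median log2 fold change 0.60), and of the 35 with B cells next, 8 were higher (median 0.32). With CD4 T cells next, 2 of 12 were higher (median 0.22). With a blood cell next, 0 of 10 (neutrophils, median -0.19) and 0 of 2 (monocytes, median -1.12) were higher. By NK level, 3 of 40 members tested under 10 CPM were higher in spleen, 15 of 44 between 10 and 100 CPM and 5 of 11 at 100 CPM or more. These splits are counts beside the same background of 19.6%, and the differences between them were not tested.

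The same comparison gave other counts for the same-rule lists of the other types. Of 98 B cell transcripts tested, 69 were higher in spleen and 4 lower (median 1.12). Of 99 monocyte transcripts tested, 2 were higher and 57 lower (median -0.83), and of 97 neutrophil transcripts, 0 were higher and 84 lower (median -2.50). The NK members lay between the B cell list and the lists of the blood cells.

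Among members that passed and whose groups did not overlap, of which there were 19, the largest fold change was that of ENSRNOT00000085517, at place 60 of the list. It stood at 6.83, 4.49, 7.02, 5.83 and 4.01 CPM in the 5 spleens and at 0.903, 1.22, 0.819, 1.42 and 1.72 CPM in the 5 whole blood samples. Every spleen was thus more than 2-fold above the highest whole blood sample. The log2 fold change was 2.05 with a standard error of 0.25 (edgeR, adjusted p = 0.000107). Its levels in sorted cells were 22 ± 10.1 CPM in NK cells, 5.42 ± 0.751 CPM in B cells and 0.566 ± 0.291 CPM in monocytes (SD, n = 6 each), so that B cells lay as high as spleen.

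The second was ENSRNOT00000003198, at place 91. Its spleen values were 4.95, 4.83, 4.6, 4.92 and 2.87 CPM, and its whole blood values were 1.42, 1.49, 1.23, 1.07 and 1.34 CPM. Spleen replicate 5 was lowest but stayed above all whole blood samples. The log2 fold change was 1.59 with a standard error of 0.20 (edgeR, adjusted p = 0.000118). B cells held 4.64 ± 0.988 CPM of it and NK cells 14 ± 8.74 CPM (SD, n = 6 each).

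The members at places 1, 2 and 5, described above in NK cells, did not pass between spleen and whole blood cells. ENSRNOT00000043719 stood at 94.9, 13.4, 72.3, 216 and 79.2 CPM in spleen and at 2.96, 40.1, 42.7, 68.0 and 37.0 CPM in whole blood cells. Its spread within each tissue was wide, and the log2 fold change of 1.19 had a standard error of 0.71 (edgeR, adjusted p = 0.214). ENSRNOT00000014319 was at 97.7 ± 18.1 CPM in spleen and 80.5 ± 10.3 CPM in whole blood cells (SD, n = 5 each), with a log2 fold change of 0.10 and a standard error of 0.15 (edgeR, adjusted p = 0.627). ENSRNOT00000025080 was at 9.54 ± 1.91 and 7.31 ± 0.605 CPM (SD, n = 5 each), with a log2 fold change of 0.21 and a standard error of 0.14 (edgeR, adjusted p = 0.244).

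**Figure D4:**
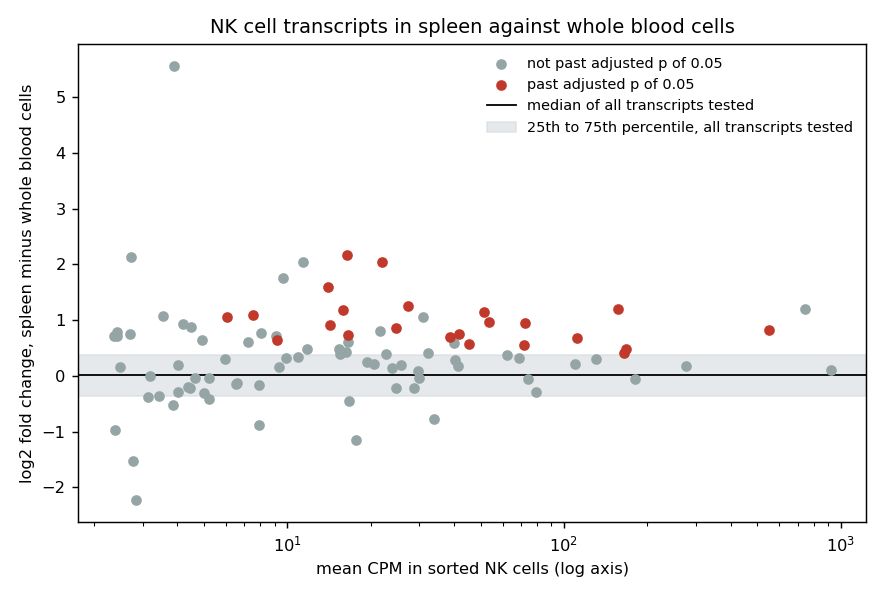
Log2 fold change of spleen over whole blood cells (vertical axis) against the mean CPM in sorted NK cells (horizontal log axis) for the 95 members tested, with the median (line) and the 25th to 75th percentile (band) of all transcripts tested. The 23 members past an adjusted p of 0.05 (red) all lie above 0, and 20 of them have an NK mean of at least 10 CPM.

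In the livers the members were close to the limit of detection, as the rule requires for the mean of the 15. The member sum was 16.3 ± 4.37 CPM in Ctrl livers (12.1 to 23.2), 24.1 ± 3.61 CPM in APAP livers (19.4 to 28.7) and 24.4 ± 4.12 CPM in MDA livers (20.9 to 31.3; SD, n = 5 each), or 0.317%, 0.469% and 0.475% of the NK mean (0.275%, 0.406% and 0.412% without NK replicate 5). In Ctrl, APAP and MDA livers 24, 21 and 19 members were listed at 0 in all 5 samples, and 0, 4 and 5 had a mean of at least 1 CPM. The sum was 1.48 times higher in APAP than in Ctrl livers (log2 0.56) and 1.5 times higher in MDA livers (log2 0.58), and 3 of 5 APAP and 2 of 5 MDA livers lay above all 5 Ctrl livers. With the same scaling to the library total, all transcripts tested had a median log2 shift of 0.74 after APAP and 0.55 after MDA. A ratio of sums and a median over transcripts are unlike measures. On the like measure, the median of the members tested below was 0.36 after APAP and 0.36 after MDA. Both lay below the shift of all transcripts tested. The log2 fold changes below are from TMM normalization, which removes that shift.

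Only 37 of the 100 members had a mean of at least 0.2 CPM over the 15 livers and were tested, and a member that passed this filter could have done so through 1 group. After APAP, 6 of the 37 passed, 3 higher and 3 lower, against 34.1% of all 17052 transcripts tested (17.4% higher and 16.7% lower). The median log2 fold change was -0.32 in the members tested and 0.06 over all transcripts tested. Without TMM normalization 5 were higher and 1 lower and the members' median was 0.36, so the split and the sign of the median depend on the scaling. After MDA, 3 of the 37 passed, 2 higher and 1 lower, against 17.6% of all transcripts tested (8.76% higher and 8.88% lower), with a median of -0.17 against 0.03. Without TMM normalization 4 were higher and 0 lower, and this median was 0.36. All 3 members that passed after MDA also passed after APAP, in comparisons that share the 5 Ctrl livers. Both shares lay below the background. By the filter and the rule the members tested averaged 0.2 to 1 CPM over the livers. In contrast, 13482 of the 17052 transcripts tested averaged at least 1 CPM. The background was thus not matched in level, and the share among transcripts as low as the members was not counted. At an unadjusted p under 0.05 (edgeR), 11 of the 37 members passed after APAP and 6 after MDA. Of all 17052 transcripts tested, 7408 passed after APAP and 5058 after MDA. In CPM, all 5 treated livers lay above all 5 Ctrl livers in 3 members after APAP, against 34.1% of all transcripts tested, and in 4 members after MDA, against 23.9%. They lay below in 0 members, against 3.88% after APAP and 2.51% after MDA.

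The clearest liver change was in ENSRNOT00000079517, at place 32 of the list. It stood at 0.0450, 0.138, 0.213, 0.104 and 0.243 CPM in the 5 Ctrl livers, at 2.2, 1.34, 2.18, 2.48 and 1.32 CPM after APAP and at 0.618, 0.520, 0.634, 0.546 and 0.62 CPM after MDA. The 3 groups did not overlap, with APAP highest and Ctrl lowest. The log2 fold change was 2.92 with a standard error of 0.42 after APAP (edgeR, adjusted p = 7.96e-05) and 1.42 with a standard error of 0.41 after MDA (edgeR, adjusted p = 0.0264). Every Ctrl liver held at most 3 estimated counts, a low level, and the number of reads behind these values is unknown. On summed estimated counts the level was 12.5 times higher after APAP (exact 95% interval for counting error only, 6.34 to 28.1) and 3.84 times higher after MDA (1.82 to 9.06). These ratios are scaled to library totals without TMM normalization, unlike the log2 fold changes beside them, and so include the shift of all transcripts. The call after MDA was lost in 8 of 19 alternatives, with adjusted p-values of up to 0.0858.

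In sorted cells, NK cells held 16.6 ± 11.5 CPM, CD8 T cells 2.35 ± 0.599 CPM and monocytes 1.65 ± 0.404 CPM (SD, n = 6 each), and the APAP livers at 1.9 ± 0.538 CPM (SD, n = 5) lay between the means of monocytes and CD8 T cells. The limit on the liver mean keeps every member's liver level low. The most abundant NK transcript, ENSRNOT00000014319, stood at 0.612 ± 0.241 CPM in Ctrl, 0.609 ± 0.409 CPM in APAP and 0.455 ± 0.512 CPM in MDA livers (SD, n = 5 each) and passed in neither comparison (edgeR, adjusted p = 0.523 and 0.453).

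ENSRNOT00000073667, at place 50, was the other member that passed and was higher after APAP without overlap. It stood at 0, 0.0778, 0.0567, 0.229 and 0.203 CPM in Ctrl livers and at 1.44, 1.17, 1.09, 1.91 and 1.44 CPM after APAP. The lowest APAP value lay above the highest Ctrl value, with a log2 fold change of 2.84 and a standard error of 0.60 (edgeR, adjusted p = 0.00175). This member entered the test through the APAP livers, since the mean of its Ctrl and MDA means was 0.194 CPM, under the filter of 0.2 CPM. Here too every Ctrl liver held at most 3 estimated counts. The ratio of summed estimated counts, again without TMM normalization, was 11.9 (exact 95% interval for counting error only, 5.52 to 30.5). After MDA it stood at 0.310, 0.281, 0.413, 0.199 and 0.174 CPM, which overlapped with Ctrl (log2 fold change 0.63, standard error 0.59, edgeR, adjusted p = 0.547). In sorted cells it was at 9.12 ± 5.13 CPM in NK cells and 1.53 ± 0.890 CPM in B cells (SD, n = 6 each). The third member that rose, at place 48, was listed at 0 in all 5 Ctrl livers and ran from 0 to 2.65 CPM after APAP and from 0 to 2.30 CPM after MDA, so its groups touched at 0. Its calls held in 8 of 19 alternatives after APAP and in 9 of 19 after MDA.

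The members that fell had groups that overlapped or touched, and they are described after their values were seen. ENSRNOT00000007598, at place 87, stood at 0.637, 0.968, 0.891, 1.10 and 1.23 CPM in Ctrl livers, at 0.792, 0.582, 0.742, 0.529 and 0.367 CPM after APAP and at 0.318, 0.629, 0.738, 0.583 and 0.450 CPM after MDA. The lowest Ctrl liver lay within both treated groups. The log2 fold change was -1.32 with a standard error of 0.34 after APAP (edgeR, adjusted p = 0.00759) and -1.36 with a standard error of 0.34 after MDA (edgeR, adjusted p = 0.0121). Without TMM normalization it was -0.65 and -0.84 and neither passed (edgeR, adjusted p = 0.175 and 0.103).

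ENSRNOT00000043719, the member with the highest ratio, was listed at 0 in all 5 APAP livers. Ctrl livers stood at 0, 0, 0.874, 0.328 and 1.30 CPM and MDA livers at 0, 0.648, 0.289, 0 and 0 CPM. With 30 estimated counts in all Ctrl livers together it passed after APAP (edgeR, adjusted p = 0.0269) but not after MDA (edgeR, adjusted p = 0.422), and no fold is given because 2 of the 5 Ctrl livers were at 0 as well. Its means were 0.500 CPM in Ctrl, 0 in APAP and 0.187 CPM in MDA livers. It had therefore passed the filter of 0.2 CPM only through the Ctrl livers, so its call after APAP is not independent of the filter. The third member that fell after APAP, at place 75, had 0.915 ± 0.263 CPM in Ctrl and 0.450 ± 0.219 CPM in APAP livers (SD, n = 5 each). Its log2 fold change was -1.72 with a standard error of 0.43 (edgeR, adjusted p = 0.0056), and its call held in 18 of 19 alternatives. This member was higher in Ctrl livers than in B cells, T cells, monocytes or neutrophils, whose means ran from 0.145 to 0.474 CPM.

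**Figure D5:**
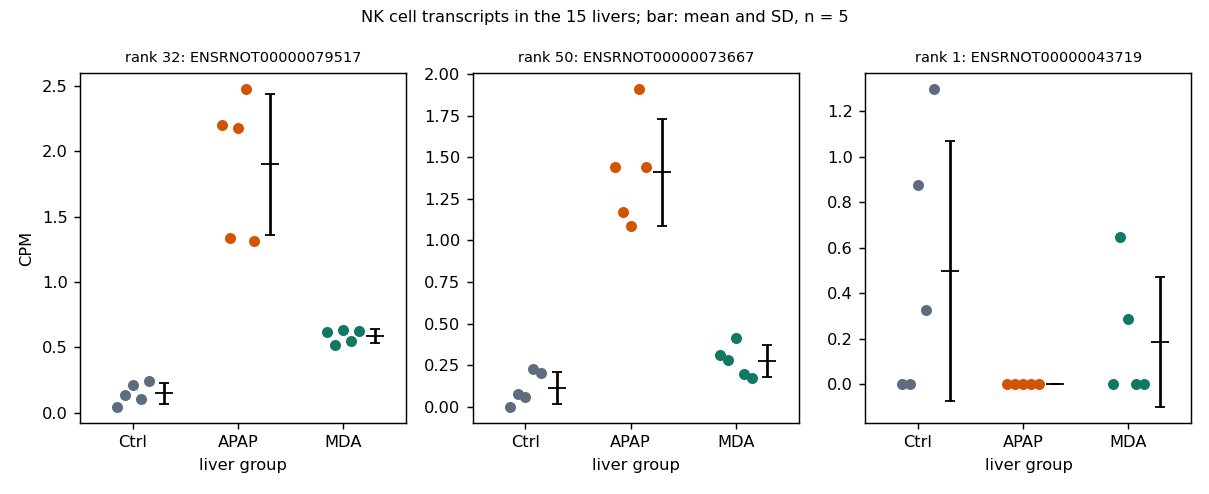
CPM of 3 members in the 5 Ctrl, 5 APAP and 5 MDA livers, one panel each with its own axis, as points with the mean and SD beside them. ENSRNOT00000079517 and ENSRNOT00000073667 lie above all Ctrl livers after APAP, and ENSRNOT00000043719 is at 0 in all 5 APAP livers and in 2 Ctrl livers.

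The toxicants were also compared with each other directly. Between APAP and MDA livers 5 of the 37 members tested passed, 3 higher after APAP and 2 lower. Of all transcripts tested 26.7% passed (13.3% higher and 13.4% lower), again a background not matched in level. At an unadjusted p under 0.05 (edgeR), 8 members passed, against 6444 of all 17052 transcripts tested. The median log2 fold change was -0.33 in the members tested and 0.01 over all transcripts tested. Both members that had passed after APAP without overlap were also higher after APAP than after MDA without overlap, which held for 13.4% of all transcripts tested, and 0 members were lower without overlap, against 7.52%. ENSRNOT00000079517 had a log2 fold change of 1.49 with a standard error of 0.37 (edgeR, adjusted p = 0.00820), and ENSRNOT00000073667 one of 2.22 with a standard error of 0.56 (edgeR, adjusted p = 0.00829). As given above, ENSRNOT00000073667 had passed the filter only through the APAP livers, so its call here is not independent of the filter. The 2 members called lower, ENSRNOT00000010852 and ENSRNOT00000072411, stood at 0.505 and 0.670 CPM in MDA livers. Their Ctrl means were 0.215 and 0.0767 CPM and their APAP means 0.109 and 0.142 CPM. For each, the mean of its Ctrl and APAP means lay under the filter of 0.2 CPM. Both had thus passed the filter only through the MDA livers, and their calls are not independent of it either.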

How the data were processed

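Paired-end RNA sequencing of 61 rat samples was analysed. After trimming with PRINSEQ++, the authors ran Salmon (version 1.6.0) on the Ensembl cDNA of Rnor_6.0 and imported the estimates with tximport in R (version 4.1.3). The submitters' processing notes also name mRatBN7.2. The methods give TPM, but the deposited values add up to library totals and were used as estimated counts. A clear step in low values was found in 429 of 2929 transcripts examined and differed between transcripts (median 0.702, 5th to 95th percentile 0.177 to 6.11). The values were therefore taken as TPM scaled to the library total, not reads, which no source states. The number of reads behind a value is therefore unknown, and intervals on estimated counts cover counting error only approximately.

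Values were rounded to whole numbers and tested with edgeR 4.0.16 (quasi-likelihood, TMM, R 4.3.3) over transcripts averaging 0.2 CPM or more in the samples of the fit, with Benjamini-Hochberg adjustment over all of them and a threshold of 0.05. Spleen and whole blood cells had 1 fit and the 15 livers another. Standard errors given with edgeR were calculated as the absolute log2 fold change divided by the square root of the test's F statistic. Alternatives used limma 3.58.1 on log2(CPM + 0.1) and log2(CPM + 1), DESeq2 1.42.0 and its size factors, no TMM, no filter, a minimum of 1 CPM, a replicate block, only the groups compared, other choices of members, and each replicate left out. Fits without rounding were added after seeing the data. The scripts were tested on simulated data. Named transcripts were the 2 highest ratios, the 2 highest NK means, the pair at the list's end, and in each comparison the 2 highest and 2 lowest fold changes among members past the threshold without overlap. The members and lists were chosen with earlier results of these data known. Lists of marker genes could not be followed for want of gene symbols.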

Additional observations from a re-analysis of the deposited data

Results flagged for a closer look

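Within single groups of 5 or 6 samples, 10 of 88 groups examined (the member sum and the named members) held a sample far from the others by Dixon's gap, where chance gives about 1 in 20 groups. The sample was in spleen in 4 of them. ENSRNOT00000025080 was lowest in spleen replicate 5 at 6.17 CPM, ENSRNOT00000003198 was lowest in spleen replicate 5 at 2.87 CPM, ENSRNOT00000079517 was highest in spleen replicate 2 at 3.62 CPM and ENSRNOT00000073667 was lowest in spleen replicate 2 at 0.908 CPM. Among sorted cells, ENSRNOT00000014319 was highest in CD4 T cell replicate 5 at 120.0 CPM and ENSRNOT00000079517 was highest in CD8 T cell replicate 5 at 3.49 CPM. ENSRNOT00000085517 was lowest in B cell replicate 1 at 3.97 CPM and listed at 0 in monocyte replicate 4. In livers, ENSRNOT00000085517 was highest in MDA replicate 2 at 0.464 CPM and ENSRNOT00000003198 was highest in Ctrl replicate 4 at 0.380 CPM.

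The responses to the toxicants differed from each other in 5 of the 37 members tested, by the direct test of APAP against MDA livers (edgeR, adjusted p under 0.05), against 26.7% of all transcripts tested. As given above, some of these members had passed the filter only through the APAP or the MDA livers.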

How the results depend on the processing

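Between spleen and whole blood cells, 23 members passed, and the count was 18 to 35 under the alternatives, with 20 to 27 when 1 replicate was left out and 35 with limma on log2(CPM + 1). Its median log2 fold change stayed positive in all of them. Without TMM, 34 passed and all transcripts shifted to spleen by a median of 0.19. After APAP, 6 members passed, against 10 with no filter and 4 to 6 with 1 replicate left out. After MDA, 3 passed, against 5 and 6 with limma on log2(CPM + 0.1) and log2(CPM + 1). With 1 replicate left out the count was 1 to 3, and it was 1 without Ctrl replicate 1, 2 or 4 or MDA replicate 5. Between APAP and MDA, 5 passed, with 3 to 5 when 1 replicate was left out, and 3 without APAP replicate 1 or MDA replicate 2, 3 or 5.

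With limma, 5 members were higher and 1 lower after APAP at both pseudocounts, and 5 and 6 were higher and 0 lower after MDA. The members' median log2 fold change after APAP changed sign to 0.36 without TMM and to 0.16 and 0.059 with limma at 0.1 and 1 CPM. After MDA it changed to 0.36, 0.23 and 0.064 under the same settings and to 0.049 with members chosen with 0.1 CPM in the ratio. Without TMM the share of calls in the higher direction over all transcripts moved from 48.8% to 70.9% between spleen and whole blood cells, from 51.0% to 88.5% after APAP, from 49.7% to 90.8% after MDA and from 49.9% to 64.7% between APAP and MDA. A minimum of 1 CPM left no member to test in livers. The cause was not tested beyond the construction of each setting.

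Of the named calls, ENSRNOT00000079517 after MDA was lost with DESeq2, with the replicate block, with only the 2 groups compared and without Ctrl replicate 1, 2 or 4 or MDA replicate 1 or 5 (adjusted p 0.0535 to 0.0858). ENSRNOT00000043719 after APAP was lost with limma and with the block (adjusted p 0.0667 to 0.0851). ENSRNOT00000007598 was lost without TMM and with limma after both compounds (adjusted p 0.0511 to 0.175). Same-numbered samples correlated at -0.01 to 0.03 between spleen and whole blood cells and at -0.29 to 0.17 between livers, so the numbers were not taken to pair the samples. With the replicate number as a block, 18, 4, 2 and 5 members passed in the 4 comparisons. Of the 100 members, 93 to 98 remained when 1 NK replicate was left out of the choice, 98 without replicate 5, and 84 to 90 under other forms of the rule.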
